A study of Mus musculus with 4 samples.

Results

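Collagens are triple-helical proteins of the extracellular matrix, each chain being encoded by its own gene. Fibrillar collagens build the banded fibrils of connective tissue, network-forming collagens build sheets such as those of basement membranes, and the remaining types decorate fibrils, form beaded filaments or span the plasma membrane. In brain and glioma the type IV network lies mainly in the basement membrane of blood vessels. Trimethylation of lysine 27 of histone H3 (H3K27me3) is laid down by Polycomb repressive complex 2 on silent genes, often over CpG-rich starts of developmental and tissue-specific genes, and can spread over long domains.

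All protein-coding RefSeq genes whose symbol reads Col, digits, a, digits were taken, which gave 44 of 21887 genes. They comprised 11 fibrillar genes, 9 network genes (types IV, VIII and X) and 24 others. H3K27me3 had been profiled by chromatin immunoprecipitation and sequencing in GL261, a mouse glioblastoma cell line grown in serum-containing medium. The control group was 1 H3K27me3 library of cells labelled Con, and the compared group 1 H3K27me3 library of cells labelled IR, which the series title lets one read as irradiated; neither dose nor harvest time was stated in the labels. The input library of each condition was not analysed by itself. With 1 library per condition no difference could be set against replicate error and no p-value between conditions was computed. Intervals are 95% exact intervals (Poisson for a number of peaks, Clopper-Pearson binomial for a share or a ratio of 2 numbers) and cover counting error only.

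The authors' lists held 9866 control and 16091 irradiated peaks, a ratio of 1.63 (1.59 to 1.67), and most of these peaks were weak: 6.84% and 15.2% had an adjusted p (q) of at most 0.05. Here a gene counts as marked if it, or the 2000 bp on either side, held any listed peak. Read numbers at the summits were recovered from each peak's fold and p, and their median was 10 for control and 11 for irradiated peaks. The fold is the authors' own enrichment at the summit over the estimated background, scaled in each list by itself. Most listed peaks thus rested on few reads.

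Of the 44 collagen genes, 8 were marked in the control list (18.2%, 8.19 to 32.7) against 6.05% of all protein-coding genes, and 11 in the irradiated list (25%, 13.2 to 40.3) against 8.2%. Marked in both lists were 6 members: Col22a1, Col23a1, Col14a1, Col4a1, Col6a4 and Col6a5; over all protein-coding genes this share was 3.67%. Col4a3 and Col4a4 were marked in the control list alone (2 members; 2.38% of all genes), and Col5a1, Col6a6, Col13a1, Col25a1 and Col26a1 in the irradiated list alone (5 members; 4.53% of all genes). The other 31 members held no peak in either list. The 44 collagen genes together held 58 control and 119 irradiated peaks, a ratio of 2.05 (1.49 to 2.86). Over the peaks at all protein-coding genes the ratio was 1.95 (1.87 to 2.03), and at those of 100 kb and over 1.78 (1.68 to 1.88). The interval of the collagen genes includes both values. Peaks of a q of at most 0.05 were found at 1 member for control (0.516% of all genes) and 4 members for irradiated cells (2.08% of all genes). The former was Col22a1, and the latter were Col22a1, Col23a1, Col14a1 and Col6a4.

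Collagen genes are long, and long genes have more room for a peak. The median length was 114 kb for members and 17.2 kb for all protein-coding genes. All marked members were longer than 100 kb, and the 18 members under that length, from Col10a1 at 7.11 kb to Col6a3 at 77.1 kb, held 0 peaks in both lists, where 3.97% (control) and 6.42% (irradiated) of all protein-coding genes of under 100 kb were marked. By length, the shares of all genes were 2.31% and 4.11% under 20 kb (4 members), 4.85% and 8.26% from 20 to 50 kb (11 members), and 9.98% and 13.6% from 50 to 100 kb (3 members). Of the 26 members of 100 kb and over, 8 were marked in control cells (30.8%, 14.3 to 51.8) and 11 in irradiated cells (42.3%, 23.4 to 63.1), beside 22.8% and 22.4% of all 2429 genes of that length. The control interval includes the share of all such genes, and the irradiated interval lies just above it. Split further, members of 100 to 200 kb were marked in 5 and 7 of 18 cases (27.8% and 38.9%; all genes 16.8% and 18.1%), and members of 200 kb and over in 3 and 4 of 8 cases (37.5% and 50%; all genes 31.4% and 28.6%). Within each of these length classes the intervals of the members, shown in the bar plot of marked shares by gene length, reached down to or below the share of all genes.

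**Figure D1:**
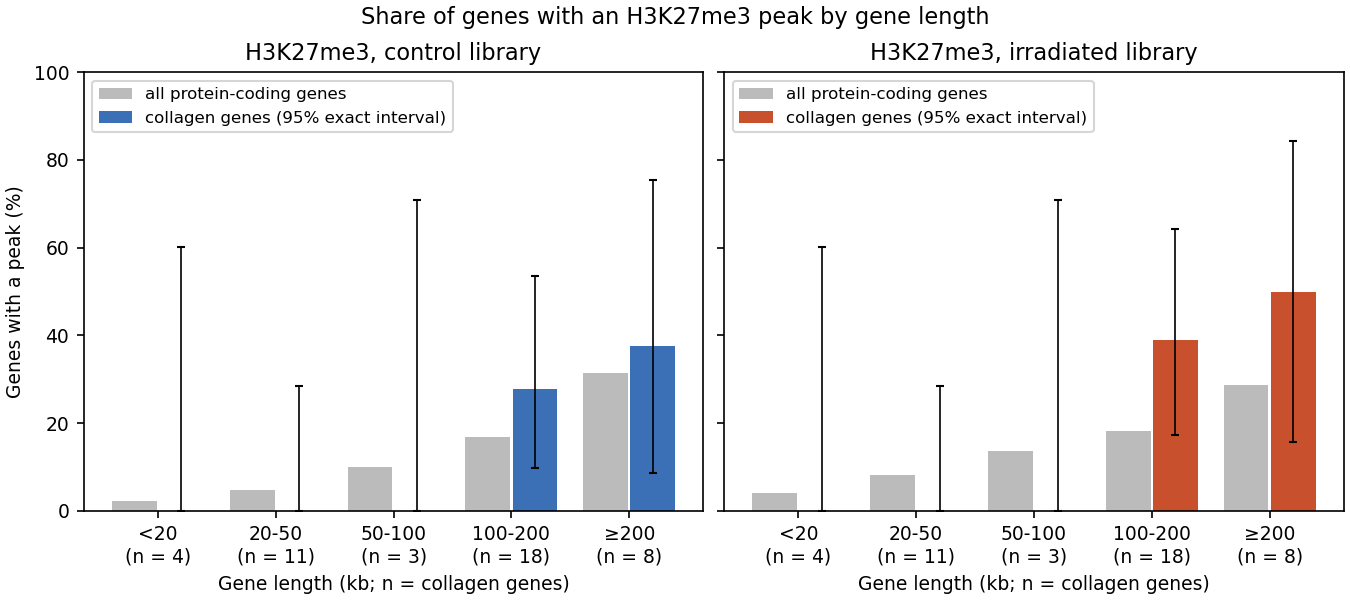
Percent of genes with an H3K27me3 peak in the gene or within 2 kb (vertical axis) in 5 classes of gene length in kb (horizontal axis), for all protein-coding genes (grey bars) and collagen genes (coloured bars, with 95% exact binomial intervals), in the control (left) and irradiated (right) library. No collagen gene under 100 kb had a peak, and 5 and 7 of the 18 members of 100 to 200 kb did.

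The peaks were concentrated on 3 members. Col22a1, Col23a1 and Col14a1 together held 53 of 58 control peaks (91.4%) and 106 of 119 irradiated peaks (89.1%), and Col22a1 by itself held 69% and 52.9%. All 3 lie on chromosomes 15 and 11, which carry many peaks in both libraries. These 3 were singled out after their values were seen, so the remainder is lower by construction. The other 41 members, with 4.73 Mb of sequence, had 1.06 control peaks per Mb (0.343 to 2.46) and 2.75 irradiated peaks per Mb (1.46 to 4.70). Over all protein-coding genes with the same windows the density was 2.86 and 5.57 peaks per Mb.

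**Figure D2:**
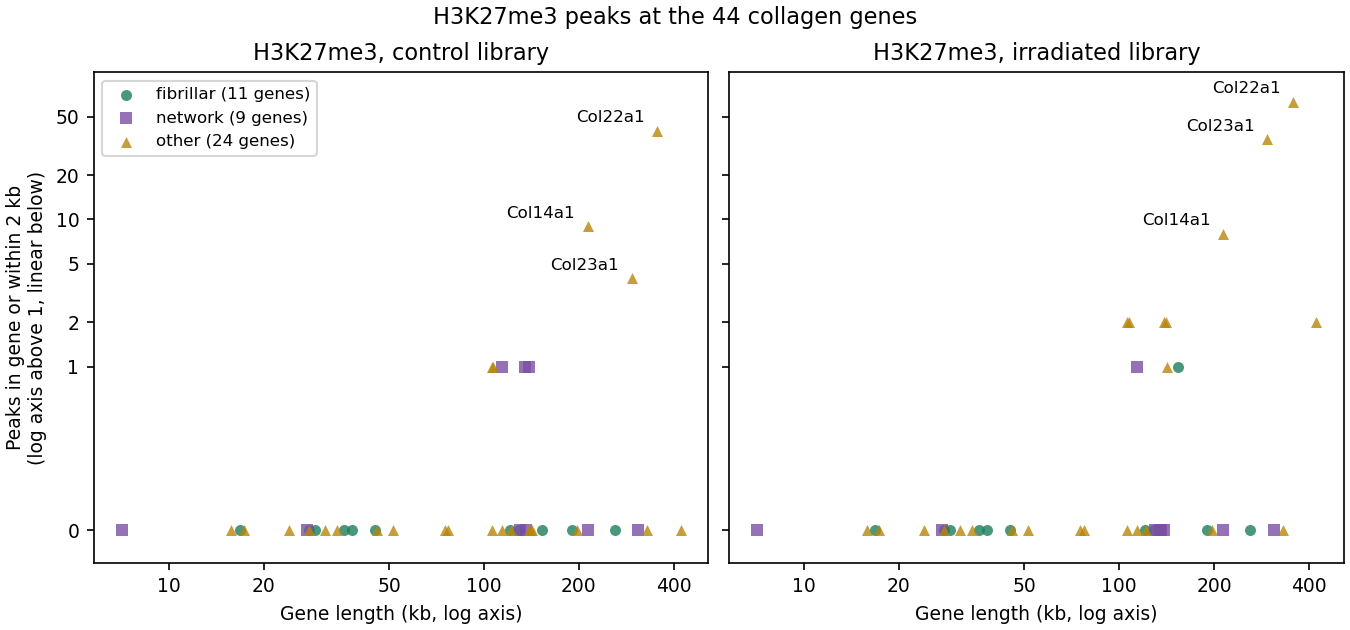
Number of H3K27me3 peaks at each of the 44 collagen genes (vertical axis, logarithmic above 1 and linear below) against gene length in kb (logarithmic horizontal axis), in the control (left) and irradiated (right) library; symbols give the class. Col22a1 stands highest in both panels with 40 and 63 peaks, and Col23a1 moves from 4 to 35.

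Compared by class, peaks lay almost wholly at collagens that are neither fibrillar nor network-forming. The 11 fibrillar genes (median length 45.1 kb, 16.8 to 260 kb, 1.09 Mb with windows) had 0 control peaks (0 to 3.39 per Mb) and 1 irradiated peak (0.918 per Mb, 0.0232 to 5.11). The 9 network genes (median 135 kb, 7.11 to 309 kb, 1.24 Mb) had 3 control peaks (2.42 per Mb, 0.500 to 7.08) and 1 irradiated peak (0.808 per Mb, 0.0205 to 4.50). The 24 other collagens (median 106 kb, 15.8 to 420 kb, 3.28 Mb) had 55 control peaks (16.8 per Mb, 12.6 to 21.8) and 117 irradiated peaks (35.7 per Mb, 29.5 to 42.7). Among genes of 100 kb and over, median lengths were 153 kb (fibrillar), 136 kb (network) and 141 kb (other), but Col22a1 and Col23a1, with 355 and 294 kb, lie far above them. When Col22a1, Col23a1 and Col14a1 were left out, the other class fell to 0.831 control peaks per Mb (0.101 to 3) and 4.57 irradiated peaks per Mb (2.28 to 8.18), and its intervals overlapped those of the fibrillar and network classes in both lists. These 3 genes were taken from 1 class after their values were seen, so a lower density there was fixed by the choice. Among members of 100 kb and over, 0 and 1 of 5 fibrillar, 3 and 1 of 7 network, and 5 and 9 of 14 other genes were marked for control and irradiated peaks. Of all genes of that length 22.8% and 22.4% were marked. The intervals of the class shares included these values, except for the irradiated share of the other class (64.3%, 35.1 to 87.2).

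No gene sequence under a peak was at hand, but RefSeq promoter sequences (GRCm38.p6, the assembly of mm10) were matched by symbol for 35 of the 44 members. No listed peak of either library had its summit within 2 kb of these starts. In 4 members an irradiated peak inside the gene lay within 10 kb of the start: Col23a1, which encodes a transmembrane collagen, and the neighbouring chromosome 9 genes Col6a4, Col6a5 and Col6a6, which encode chains of the beaded-filament type VI. The start is that of the promoter entry, which in these 4 genes lies inside the outer bounds of the gene. The windows shown therefore lie partly or wholly within the gene. For Col6a5 the start is at 105960643 and the gene ends at 105962463, and the nearest irradiated summit is 10912 bp from that end. The 250 bases that precede the start of each entry are shown 5′ to 3′. They were chosen because, among the 35 members with an entry, irradiated peaks came closest to these starts. Capitals mark every CG, the dinucleotide that is dense in starts bound by Polycomb complexes.
Col23a1 (chr11:51289670-51289919, + strand): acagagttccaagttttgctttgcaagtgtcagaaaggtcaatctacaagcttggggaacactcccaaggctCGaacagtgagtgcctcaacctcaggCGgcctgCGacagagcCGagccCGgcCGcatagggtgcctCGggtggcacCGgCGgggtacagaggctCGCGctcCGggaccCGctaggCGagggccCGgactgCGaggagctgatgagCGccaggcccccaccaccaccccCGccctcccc
Col6a4 (chr9:106096692-106096941, - strand): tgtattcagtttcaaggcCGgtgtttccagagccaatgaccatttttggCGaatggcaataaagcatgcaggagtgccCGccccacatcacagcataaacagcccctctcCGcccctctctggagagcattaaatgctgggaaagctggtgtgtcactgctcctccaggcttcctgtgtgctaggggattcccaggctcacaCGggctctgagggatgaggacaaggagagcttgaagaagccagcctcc
Col6a5 (chr9:105960644-105960893, - strand): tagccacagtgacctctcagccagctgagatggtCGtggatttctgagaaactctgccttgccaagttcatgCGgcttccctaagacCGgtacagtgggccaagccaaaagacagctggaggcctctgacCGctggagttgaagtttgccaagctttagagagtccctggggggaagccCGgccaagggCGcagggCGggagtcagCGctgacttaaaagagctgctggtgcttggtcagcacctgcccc
Col6a6 (chr9:105828086-105828335, - strand): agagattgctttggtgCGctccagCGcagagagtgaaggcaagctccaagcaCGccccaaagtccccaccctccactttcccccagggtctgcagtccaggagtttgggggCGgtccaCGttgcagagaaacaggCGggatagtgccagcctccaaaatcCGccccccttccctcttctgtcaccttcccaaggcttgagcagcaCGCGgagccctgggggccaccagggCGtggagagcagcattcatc

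These windows hold 18 CG in Col23a1, 5 in Col6a4, 8 in Col6a5 and 10 in Col6a6, against a median of 10 (quartiles 3 and 19) over 21263 promoters of protein-coding genes; 93.4% of those hold at least 1 CG, which reads the same on both strands. The Col23a1 start is thus above the median, at the 72.4th percentile, and the 3 type VI starts are at or below it. Of the other marked members with an entry, Col4a1 had 31 CG, Col5a1 28, Col13a1 24, Col25a1 18 and Col4a4 10. The median was 18 (range 5 to 31) over the 9 marked members with an entry and 7 over the 29 entries of unmarked members. The marked members Col22a1, Col14a1, Col4a3 and Col26a1 had no entry. All marked members are longer than 100 kb and the unmarked ones include shorter genes, so the groups also differ in length. A link between CG number and marking was not tested. The nearest irradiated summit lay 3 kb from the start of Col23a1, 3.02 kb from that of Col6a4, 9.09 kb from that of Col6a5 and 9.37 kb from that of Col6a6. At 2 unmarked members an irradiated summit outside the 2000 bp window also came within 10 kb, at 9.80 kb for Col19a1 and 9.97 kb for Col6a3. The nearest control summits of the genes whose sequences are shown were farther away, at 6.06 kb for Col23a1 and 57.0, 57.0 and 75.6 kb for the others. These genes were chosen because irradiated peaks came closest to their starts, so this order was largely fixed by the choice. A match of letters is a description, and the base composition of the peaks themselves was not analysed here.

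Among the collagens that associate with fibrils (FACITs), Col22a1, whose product lies at tissue junctions such as that of muscle and tendon, carried the most peaks. The gene spans 355 kb of chromosome 15 (71795795 to 72150979) and held 40 control peaks (28.6 to 54.5) and 63 irradiated peaks (48.4 to 80.6), a ratio of 1.57 (1.04 to 2.40). The interval included 1 with equal numbers of peaks (1.23, 0.79 to 1.91), with peaks within 1000 bp merged (1.25, 0.739 to 2.13) and without peaks over raised background (1.45, 0.915 to 2.34), so the excess then lay within counting error. Among peaks of a q of at most 0.05 the ratio was 6.33 (1.86 to 33.4). The whole lists also differed there, with 675 control and 2453 irradiated peaks of that q. By total Col22a1 ranked first of 82 protein-coding genes with at least 20 peaks in both lists together. The irradiated share of its peaks was 61.2% (51.1 to 70.6), below the median of 66.7% of those genes (quartiles 58.3 and 76.5). Per Mb it ranked 5th (control) and 7th (irradiated) among the 2429 genes of 100 kb and over.

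The peaks of Col22a1 filled its middle and left both ends empty. Counted from the end at lower coordinates, all summits of both lists lay between 96.9 and 285 kb, a stretch of 188 kb (71892667 to 72081053) that is 53.0% of the gene. In that stretch the density was 212 control and 334 irradiated peaks per Mb, and the 96.9 kb on its lower and the 69.9 kb on its upper side held 0 peaks in both libraries. Its bounds were set at the outermost summits, so the higher density inside and the 0 peaks beside it follow from that choice. In steps of 50 kb, the control counts were 12 from 100 to 150 kb, 17 from 150 to 200 kb, 5 from 200 to 250 kb and 6 from 250 to 300 kb. The irradiated counts over the same steps were 23, 23, 9 and 7, with 1 more peak before 100 kb. Both lists also left their widest internal gap at almost the same place, from 222 to 246 kb (control) and from 219 to 238 kb (irradiated). Neighbouring summits were a median of 2.58 kb (control) and 2.16 kb (irradiated) apart.

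**Figure D3:**
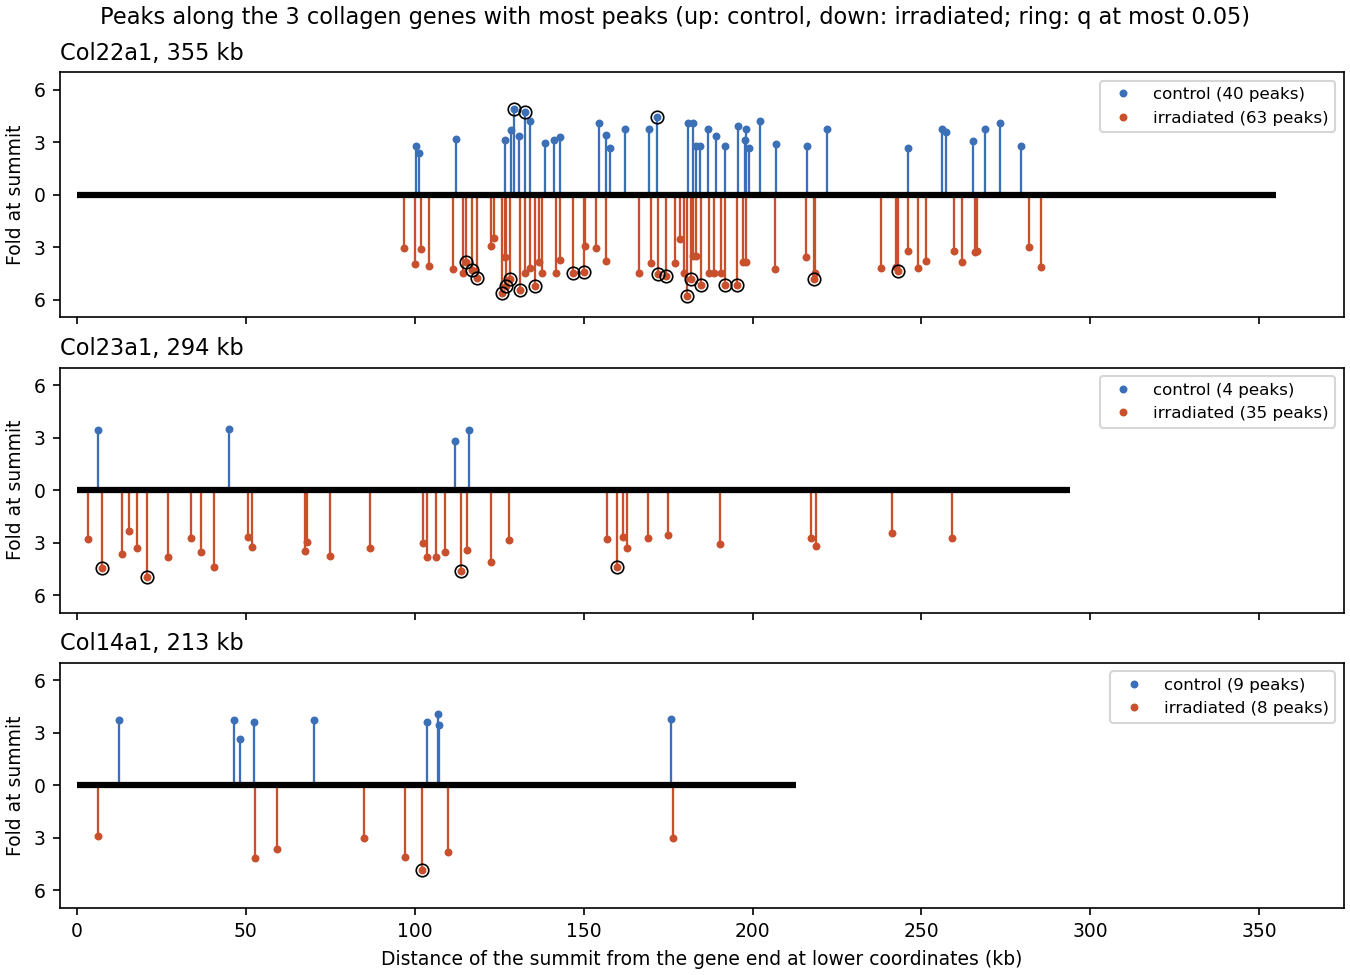
Peaks along Col22a1, Col23a1 and Col14a1: the horizontal axis is the distance of the summit in kb from the gene end at lower coordinates, the black bar is the gene, and the height is the authors' fold at the summit (control upward, irradiated downward; rings mark a q of at most 0.05). In Col22a1 the peaks of both lists lie between 96.9 and 285 kb, while in Col23a1 35 irradiated peaks face 4 control peaks.

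The peaks of Col22a1 were wider and more often shared than the lists as a whole. Control peaks had a median width of 406 bp and irradiated ones of 489 bp, where all peaks had 357 and 364 bp, and they covered 20.5 kb (5.71%) and 39.5 kb (11%) of the gene with its windows. The widest spanned 1856 bp (control) and 2006 bp (irradiated). Of the 40 control peaks, 25 (62.5%) shared 1 bp or more with an irradiated peak. Conversely, 26 of the 63 irradiated peaks (41.3%) touched a control peak, against 21.4% and 13.3% over the whole lists. The dense stretch, bounded by its own outermost summits, held 212 control and 334 irradiated peaks per Mb, against 3.65 and 5.96 per Mb for the whole lists. The part of this crowding in the sharing was not tested.

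The fold at Col22a1 summits ranged from 2.40 to 4.88 for control peaks (median 3.39) and from 2.45 to 5.79 for irradiated peaks (median 4.16), over 7 to 15 reads (median 10) and 8 to 22 reads (median 12). The ranges overlapped widely. A q of at most 0.05 was reached by 3 control and 19 irradiated peaks. The lowest control q, 0.0085, belonged to the peak at 71925109 to 71925692, with a fold of 4.88 over 15 reads. An irradiated peak at 71923625 to 71925630, with a fold of 4.81 over 13 reads, overlapped it. The lowest irradiated q, 0.000521, belonged to the peak at 71921000 to 71921813, with a fold of 5.61 over 19 reads, which no control peak overlapped. For each of the 25 overlapping control peaks the strongest overlapping irradiated peak was taken. The irradiated fold was the higher one in 23 of these pairs, with a median ratio of 1.26 (range 0.985 to 1.85). This choice favours the irradiated side where a control peak touched more than 1 irradiated peak, and an irradiated peak could be taken more than once. The same comparison over all 2108 overlapping control peaks gave a higher irradiated fold in 70.7% and a median ratio of 1.15. The lowest fold that was called at the lowest background was itself 1.14 times as high in the irradiated list as in the control list, so the absolute folds of the 2 lists are not on 1 scale.

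The dense stretch ended within the gene and did not continue into its surroundings. Flanks as long as the gene with its windows held 8 and 5 control peaks (22.3 and 13.9 per Mb) and 1 and 0 irradiated peaks (2.78 and 0 per Mb), against 111 and 175 per Mb in the gene. Chromosome 15 as a whole had 22.2 control and 27.9 irradiated peaks per Mb. The lower flank holds Fam135b and the higher flank Kcnk9. In these flanks the order of the lists turned: 13 control peaks stood against 1 irradiated peak, while the gene between them had more irradiated than control peaks.

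**Figure D4:**
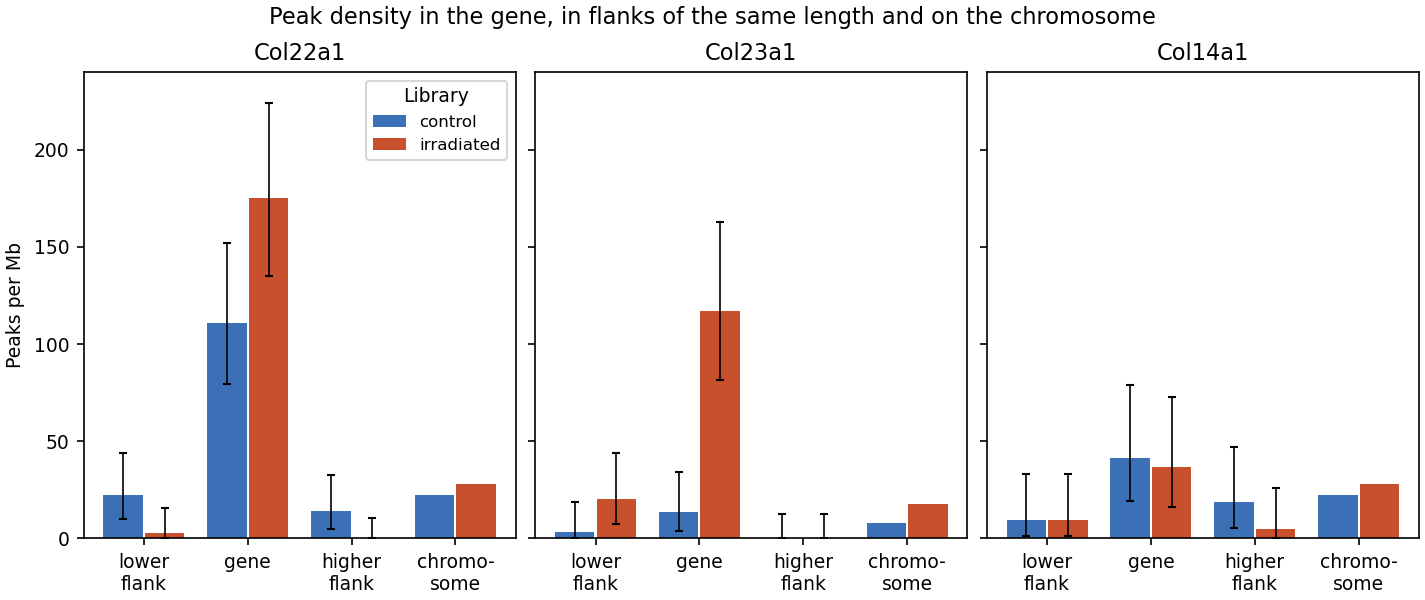
Peaks per Mb (vertical axis) in Col22a1, Col23a1 and Col14a1 with their 2 kb windows, in flanks of the same length at lower and higher coordinates and on the whole chromosome, for the control and the irradiated library; error bars are 95% exact Poisson intervals and none is drawn for the chromosome. The gene stands above both flanks for Col22a1 in both libraries, and for Col23a1 in the irradiated library.

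Col14a1, the FACIT gene whose product binds the surface of fibrils, lies on the same chromosome (55307644 to 55520803, 213 kb). It held 9 control and 8 irradiated peaks, a ratio of 0.889 (0.298 to 2.60), so the number did not differ beyond counting error. Its control folds ran from 2.67 to 4.08 and its irradiated folds from 2.91 to 4.81. The strongest irradiated peak, at 55409487 to 55409858, had 13 reads and a q of 0.0119; the lowest control q was 0.314. One control peak overlapped an irradiated peak, with folds of 3.60 and 4.16, and another ended 20 bp short of one near 176 kb from the lower end. Density in the gene was 41.4 and 36.8 peaks per Mb, and in its flanks 9.21 and 18.4 (control) and 9.21 and 4.60 (irradiated), and the intervals of gene and flanks overlapped in both libraries. The other 7 FACIT genes, Col9a1, Col9a2, Col9a3, Col12a1, Col16a1, Col19a1 and Col20a1, held 0 peaks in both lists. Col19a1 is nearly as long as Col22a1, at 330 kb. It lies on chromosome 1, which had 1.74 control and 3.09 irradiated peaks per Mb.

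Counting all listed peaks, Col23a1 was the member whose peak number differed most between the libraries. With a q of at most 0.05 it had 0 control and 4 irradiated peaks, and Col22a1 had 3 and 19. The whole lists held 675 control and 2453 irradiated peaks of that q. Col23a1 covers 294 kb of chromosome 11 (51289679 to 51583925). It held 4 control peaks (1.09 to 10.2) and 35 irradiated peaks (24.4 to 48.7), a ratio of 8.75 (3.13 to 33.9). On the whole of chromosome 11 the ratio was 2.34 (2.17 to 2.53). Of its peaks 89.7% (75.8 to 97.1) were irradiated ones, the 5th highest share among the 82 genes with at least 20 peaks. Zbtb7c, Csmd2, Megf11 and Rnf220 had higher shares. Next below, with equal shares of 87.5%, were Grap2 on chromosome 15 (3 control and 21 irradiated peaks) and Fstl4 on chromosome 11 (5 and 35). The 17 such genes of chromosome 11 had a median irradiated share of 69.6%.

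The 4 control peaks of Col23a1 had folds of 3.45, 3.51, 2.78 and 3.46 over 12, 10, 7 and 13 reads, and none had a q below 0.385. The irradiated folds ran from 2.36 to 4.98 (median 3.31) over 8 to 21 reads (median 12), and 4 peaks had a q of at most 0.05. The strongest of them, at 51310160 to 51310461, had a fold of 4.98 over 14 reads and a q of 0.0119. Folds of the control peaks thus fell inside the irradiated range, and the libraries differed in the number of listed peaks. No control peak overlapped an irradiated one. Over the whole control list 21.4% did, so little can be read from 4 peaks. All 4 lay within 5 kb of an irradiated peak, at 469, 4045, 1155 and 463 bp. Neighbouring irradiated summits of the gene were a median of 4.9 kb apart, so little can be read from that closeness. The irradiated peaks were spread from 3.24 to 259 kb along the gene, with 10, 6, 8, 7, 3 and 1 peaks in successive steps of 50 kb.

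The background at these summits was high. In 22 of the 35 irradiated peaks (62.9%) and 2 of the 4 control peaks it was at least 1.5 times the lowest of the list, against 26.4% and 14.9% of all peaks and 15 of 63 and 7 of 40 at Col22a1. With such peaks left out, Col23a1 held 2 control and 13 irradiated peaks, a ratio of 6.5 (1.47 to 59.3). With equal numbers of peaks in both lists, it held 4 and 15, a ratio of 3.75 (1.19 to 15.5). The flank at lower coordinates held 1 control and 6 irradiated peaks and the flank at higher coordinates 0 in both, so the irradiated density of 117 per Mb in the gene stood against 20.1 and 0 per Mb beside it. The gene-rich higher flank holds Hnrnpab, Nhp2 and Sec24a among others, and the lower flank olfactory receptor and zinc finger genes.

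The other transmembrane collagens held few peaks. Col25a1, whose product was found in amyloid plaques, is the longest member at 420 kb (chromosome 3, 130180358 to 130599884) and had no control peak. It had 2 irradiated peaks, of which the stronger, at 130403342 to 130403611, had a fold of 4.49 over 12 reads and a q of 0.0536. Its density of 4.72 irradiated peaks per Mb (0.572 to 17.1) included the 1.66 per Mb of chromosome 3 within its interval. Col13a1, which encodes a collagen of the neuromuscular junction, had 2 irradiated peaks with folds of 2.92 and 3.23 and a lowest q of 0.188, both over raised background and both also inside long non-coding genes (Gm30121 and Gm51766). Col17a1, of the hemidesmosomes that anchor epithelia, had 0 peaks in both lists. Of 4 transmembrane genes, control peaks marked 1 and irradiated peaks 3. The 3 marked ones are of 141 to 420 kb, and of all genes of 100 kb and over 22.8% and 22.4% were marked.

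The type VI genes Col6a4, Col6a5 and Col6a6 lie side by side on chromosome 9 and were the longest of the 6 genes for beaded filaments, with 107, 106 and 139 kb. Col6a4 (105990318 to 106096828) had 1 control peak with a fold of 3.40 and 2 irradiated peaks with folds of 3.51 and 4.81. The latter, at 106093524 to 106093964, had 13 reads and a q of 0.0119 and was the sole peak of a q of at most 0.05 at a member outside chromosomes 15 and 11. Col6a5 had 1 control peak with a fold of 2.78 and 2 irradiated peaks with folds of 3.84 and 3.19. Col6a6 had no control peak and 2 irradiated peaks with folds of 3.51 and 3.61. Each of the 3 genes therefore had 2 irradiated peaks and at most 1 control peak. No control peak of the group overlapped an irradiated one, where 21.4% of all control peaks did. With 1 control peak each at Col6a4 and Col6a5, little can be read from this. Taken as all 6 type VI genes, the ratio was 6 to 2, or 3 (0.536 to 30.4), which does not exceed counting error and stands beside 2.48 (2.15 to 2.86) for chromosome 9. Col6a1, Col6a2 and Col6a3, whose products make up the common type VI heterotrimer, had 0 peaks.

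Among network collagens, peaks were found at type IV genes that face each other in pairs with a shared start region. Col4a1 (chromosome 8, 11198423 to 11312889) had 1 control peak at 11265218 to 11265553, with a fold of 3.75 over 10 reads and a q of 0.385. It also had 1 irradiated peak at 11269172 to 11269828, with a fold of 3.84 over 10 reads and a q of 0.149. Both also lie in the long non-coding gene Gm32709. The 2 peaks were 3619 bp apart and 47.5 and 43.3 kb from the end that Col4a1 shares with Col4a2, which held 0 peaks. Col4a4 and Col4a3 on chromosome 1 each had 1 control peak, with folds of 3.11 over 8 reads and 2.67 over 7 reads and a q of 1, and no irradiated peak. Control peaks of 7 reads, the lowest number at members, were also found at Col6a5, Col23a1, Col14a1 and Col22a1. The pair Col4a5 and Col4a6 on the X chromosome, with 214 and 309 kb, and Col8a1, Col8a2 and Col10a1 had 0 peaks. The chains of the ubiquitous type IV network (Col4a1 and Col4a2) and those of specialised basement membranes were thus not set apart by these peak numbers.

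Of the fibrillar genes, Col5a1 was the sole one with a peak, an irradiated one at 27964737 to 27965117 of chromosome 2 with a fold of 2.37 over 11 reads, a raised background and a q of 0.912. The genes of the major fibrils, Col1a1, Col1a2, Col2a1 and Col3a1, had 0 peaks in both lists, as had Col5a2, Col5a3, Col11a1, Col11a2, Col24a1 and Col27a1. These include genes of 190 kb (Col11a1) and 260 kb (Col24a1). Col1a1 and Col2a1 lie on chromosomes 11 and 15 like the members with many peaks, and span 16.8 and 29.1 kb. Col1a2, of 35.9 kb, lies on chromosome 6, where Col28a1, of 197 kb, also had 0 peaks. In the remaining collagens, Col26a1 had 1 irradiated peak with a fold of 2.92 over 11 reads and a q of 0.485, also over raised background. Col28a1, the anchoring fibril gene Col7a1 and the multiplexin genes Col15a1 and Col18a1, which encode basement membrane collagens, had 0.

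All 58 control and 119 irradiated peaks overlapped the body of a member, and 0 had a summit within 2 kb of either end of its gene. Among all protein-coding genes of 100 kb and over, 1.88% of control and 1.52% of irradiated peaks at genes lay that close to an end, so few would be met among peaks of this number. Whether a peak fell in an exon or an intron was not resolved. A raised background, at least 1.5 times the lowest of its list, was found at 17.2% of the control and 34.5% of the irradiated peaks of members, beside 14.9% and 26.4% of all peaks. Of these 41 irradiated peaks 22 lay at Col23a1 and 15 at Col22a1, and all irradiated peaks of Col13a1 (2), Col5a1 (1) and Col26a1 (1) had it. Its part in the peak numbers was not tested beyond the counts without such peaks.

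Genes that act with collagens had 2.15 control and 3.23 irradiated peaks per Mb for modification and assembly. Receptors and collagenases had 1.13 and 4.52 per Mb, and other matrix proteins 1.21 and 6.07. Over all protein-coding genes the density was 2.86 and 5.57 per Mb, which the interval of each list included in both libraries. Of 31 genes for the modification, secretion and cross-linking of collagen, 2 were marked in control cells (6.45%) and 1 in irradiated cells (3.23%), beside 6.05% and 8.2% of all protein-coding genes. Adamts2, which encodes the protease that removes the amino-terminal propeptide of fibrillar procollagens, lies on chromosome 11 close to Col23a1 (50602085 to 50807573) and had 0 control and 6 irradiated peaks, with a highest fold of 4.46 and a lowest q of 0.0198. Adamts3, of the same protease group, and Tll1, of the proteases that remove the carboxy-terminal propeptide, each had 2 control peaks with a lowest q of 0.385 and 0 irradiated peaks. Of 16 genes for collagen receptors and collagenases, Itga11, the integrin subunit that binds fibrillar collagen, was marked in both lists, with 1 and 4 peaks and a lowest irradiated q of 0.0128. Of 30 genes for laminins, proteoglycans and other matrix proteins, 3 were marked in control cells (10%) and 5 in irradiated cells (16.7%), beside the same 6.05% and 8.2%. Their median length was 62.8 kb, and of all genes of 50 to 100 kb 9.98% and 13.6% were marked, so these shares are near the background. Lama3, a laminin chain of epithelial basement membranes (chromosome 18, 250 kb), led them with 2 control and 14 irradiated peaks and a lowest irradiated q of 0.000505; Lama1 and Lamb3 had 0 control and 2 irradiated peaks each.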

How the data were processed

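The control and the irradiated H3K27me3 peak list of GL261 cells were analysed. BWA, deepTools and mm10 are named, without versions, in the submitters' processing notes; which program called the peaks, at which threshold and with what use of the input, is not stated there. Each library has its own list. In the files the authors deposited, columns of other kinds hold positions (bp). Per the deposited values, the score equals 10 times the −log10 p, cut to whole numbers. A deposited fold, a ratio, compares the summit with its estimated background. Unadjusted p-values and adjusted q-values were deposited as −log10; the largest p was 0.00495 (control) and 0.00499 (irradiated).

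Further summits of an interval (215 and 679) were merged with the strongest. Whole ChIP reads and the background were recovered from fold and p with a Poisson model (tolerance 0.001 in −log10 p). This gave a solution for 100% of peaks, and more than 1 for 0.292% of irradiated peaks, of which 0 lay at a member. On 3843 simulated control and 3772 simulated irradiated peaks, made with the same model, it recovered 100%. This checks the computation and cannot show that the peaks were called with that model. Library totals are unknown.

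Genes came from RefSeq (GRCm38.p6), without 13 mitochondrial or unplaced genes; all entries of the 3 related lists matched. Every member was accounted for; full values were given for members with a peak of a q of at most 0.05 and for up to 12 members with most peaks, and up to 3 genes per related list were named, those with most peaks. Other genes were named after their values were seen. Members and lists were chosen with earlier results of these data known. Alternatives changed the window, the peak strength, the number of peaks, the merging of peaks and the genes or chromosomes included. Python 3.11.15, pandas 2.3.3 and SciPy 1.17.1 were used.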

Additional observations from a re-analysis of the deposited data

How the results depend on the processing

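The peak numbers at collagen genes depend on 3 genes, on the strength asked of a peak and on the length of the lists. Peaks within the gene itself, or within 5000 bp, gave values close to those reported for each of the 11 summary values. Keeping only q values up to 0.05, members marked were 1 (control) and 4 (irradiated), with 3 and 25 peaks and a ratio of 8.33. The whole lists held 675 control and 2453 irradiated peaks of that q. Densities were then 0 per Mb for fibrillar genes in the irradiated list and for network genes in both lists, and 0.914 and 7.62 per Mb for other genes. With a −log10 p of at least 5, an alternative added after the data were seen, members marked were 1 and 5, with 5 and 39 peaks and a ratio of 7.80; densities were 0 for irradiated fibrillar and for network genes and 1.52 and 11.9 for other genes. With equal numbers of peaks, irradiated peaks at members came to 75, the ratio to 1.29, and irradiated densities to 0 (fibrillar) and 22.6 (other). With peaks within 1000 bp merged, the irradiated density of other genes was 25.6. Without chromosomes 15, 6 and 11, control members marked were 5, peaks 5 and 13, and densities of other genes 0.907 and 4.99. Without Col22a1, peaks were 18 and 56, the ratio 3.11 and densities of other genes 5.13 and 18.5. Without Col22a1, Col23a1 and Col14a1, added after the data were seen, control members marked were 5, peaks 5 and 13, and densities of other genes 0.831 and 4.57. For Col22a1 the ratio ranged from 1.23 with equal numbers of peaks to 6.33 with a q of at most 0.05. For Col23a1 it ranged from 3.75 to 8.75 and for Col14a1 from 0.556 to 1, where control peaks were left to divide by; under both stricter thresholds these 2 genes had 0 control peaks. Leaving out peaks with a raised background was also added after the data were seen. No paired analysis was possible because each condition had 1 library. Single peaks at members rested on 7 to 22 reads and library totals are unknown, so a gene without a listed peak is not shown to lack the mark.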
